A study of Mus musculus with 9 samples.

Results

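The genes described here are the 183 of 38197 gene symbols whose read counts peaked at 5.5DDC, the middle of the 3 times (4.5DDC, 5.5DDC, 6.5DDC) at which neural stem cells (NSCs) were sorted. DDC counts the days the cells had spent in differentiation conditions. They were chosen by the deposited log2 values (log2 CPM, the count scaled to the library total) and by the deposited FPKM, a level scaled to transcript length and to depth. A gene was taken when its 3 log2 values at 5.5DDC were all above each of the 6 other values, when its 5.5DDC mean was at least 0.5 above the mean of each other time point, and when its 5.5DDC mean reached 1 FPKM. Of the 14929 symbols that reached this FPKM floor, 248 (1.66%) had no overlap in the log2 values, and 183 of these also had the margin of 0.5. The rise to 5.5DDC and the fall after it are therefore given as descriptions, without a test. Of the 183 members, 119 (65.0%) were annotated as pseudogenes and 36 (19.7%) as protein-coding genes.

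The cells were wild-type mouse embryonic stem cells (ESCs) of strain 129 grown as a monolayer. They were exposed to retinoic acid and to SAG, an agonist of the Shh receptor component Smo, from 0DDC to 3DDC by the labels (the study's methods place the change to medium without supplements somewhat later), and were sorted by magnetic beads for Prominin-1, which neural progenitors carry on their surface. All 9 libraries shared this genotype and treatment and differed in the time of sorting, with 3 libraries per time point. The labels write 4.5, 5.5 and 6.5 for the times but whole days (4, 5 and 6) in the source name, and do not say whether replicates came from separate cultures, so that p-values measure only the spread between these libraries. Polyadenylated RNA was sequenced, and a library held between 11066572 and 25506192 counts. All 13 neural progenitor markers examined were detected, at a summed level of 4015 to 4626 CPM at 4.5DDC, 4653 to 5372 CPM at 5.5DDC and 4719 to 4847 CPM at 6.5DDC. In such bulk samples, fewer cells of a type and less RNA per cell cannot be told apart.

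Replicates 2 and 3 of 5.5DDC were unusually alike. Their counts differed by 2.58 times the variance of sampling noise (chi-square per degree of freedom over genes), against 25.6 to 67.5 for the other pairs of replicates of one time point. They were kept as separate libraries, as labelled. An excess over sampling noise does not show that they came from separate cultures. When the counts of these libraries were summed and taken as 1 library, 297 genes met the rule, including 174 of the 183 members. Replicate 1 of 5.5DDC was the deepest library, with 25506192 counts, and replicates 2 and 3 were among the shallowest.

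A processed pseudogene arises when a messenger RNA is reverse-transcribed and inserted elsewhere in the genome. It carries the spliced sequence of its parent gene without introns, and parents that are strongly expressed in the germ line, such as ribosomal protein genes, Gapdh and actin genes, have left many copies. A short read from the parent messenger RNA can match such a copy equally well, so the level assigned to a pseudogene depends on how reads with several matches are treated. How the counts and the FPKM treated such reads is not given in the sources used here.

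To show how close members lie to their parents, stretches of 50 bases, taken as the length of a read, are printed below for named members beside the protein-coding gene most like them. The stretch shown is that with the median number of differences, capitals mark bases that differ, and all stretches come from GENCODE M21 transcripts on GRCm38. Gm12712 (chr11:72572530-72573330, minus strand) is a copy of Rpl7a, a protein of the large ribosomal subunit.
Gm12712: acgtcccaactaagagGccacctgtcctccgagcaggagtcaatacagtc
Rpl7a: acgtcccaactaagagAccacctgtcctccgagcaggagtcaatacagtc

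Gm13340 (chr2:22588103-22589647, minus strand) is a nuclear copy of mt-Co1, the mitochondrial gene for a subunit of cytochrome c oxidase. In this pair the stretch again differed at 1 base.
Gm13340: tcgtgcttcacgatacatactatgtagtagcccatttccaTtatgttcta
mt-Co1: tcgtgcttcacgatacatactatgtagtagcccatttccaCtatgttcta

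For Gm4609 (chr3:122230195-122231196, minus strand), a copy of the glycolytic gene Gapdh, for Rpsa-ps2 (chr10:128776371-128777250, minus strand), a copy of the ribosomal gene Rpsa, and for Gm5540, a copy of the acyl-CoA synthetase gene Acsf2, the stretch was identical in the parent.
Gm4609 and Gapdh: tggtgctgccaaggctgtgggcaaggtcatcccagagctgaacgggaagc
Rpsa-ps2 and Rpsa: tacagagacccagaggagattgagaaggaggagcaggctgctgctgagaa
Gm5540 and Acsf2: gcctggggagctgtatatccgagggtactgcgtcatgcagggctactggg

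Of the 119 pseudogene members, 112 were processed pseudogenes, 3 were transcribed processed pseudogenes and 4 were unprocessed pseudogenes. For 109 of them a protein-coding gene was at least 90% identical over at least 50% of their length, with a median identity of 96.4%. These 109 members traced to 63 protein-coding genes, and 61 of the 109 were copies of cytosolic ribosomal protein genes. The parents with most copies among the members were Gapdh with 8, Rps2 with 7, Rpl7a with 6, and the chromatin protein gene Hmgb1, Rpl21 and Rpl29 with 4 each. Among the 14746 other symbols at the FPKM floor, 13.7% were pseudogenes and 80.0% protein coding. The remaining members were 20 symbols with no match in the annotation used here, 17 of them named RP23 or RP24, as well as 6 small RNAs and 2 other noncoding RNAs.

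Over the 61 parents with values, the median log2 CPM difference was −0.029 from 4.5DDC to 5.5DDC and 0.276 for 5.5DDC over 6.5DDC. The copies were chosen on these values, as were 3 of the parents that are members themselves (Acsf2, Rps3a1 and Rpl23a), so no comparison between parents and copies is drawn. The median member had 26.8% of its 50-base stretches in common with another gene, compared with 1.32% for the other symbols. Pseudogenes alone did not show this difference, with 32.6% for members and 36.8% for the other pseudogenes.

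Counts behind the pseudogene members were low, as were those of other pseudogenes. The median of their mean counts at 5.5DDC was 5.67, compared with 8 for the other pseudogenes at the FPKM floor, 78.3 for the protein-coding members and 427 for all other symbols at the floor. Over all classes, 38 of the 183 members had fewer than 10 counts over the 9 libraries together, 22 had none in the 6 libraries of 4.5DDC and 6.5DDC, and 19 had at least 100 counts on average at 5.5DDC. In addition, 19 members had a count of 0 in replicate 3 of 5.5DDC itself. They met the rule because a count of 0 has a log2 value of −4.468 in that library, the shallowest, and of −5.673 to −4.491 in the others. The 107 members with a mean count under 10 had a median smaller margin (the lesser of both differences of the 5.5DDC mean) of 1.49, and the 19 members with at least 100 counts one of 0.67, as the plot of peak height against depth shows. Requiring a mean count of at least 10, 20 or 50 at 5.5DDC left 76, 50 and 29 members, of which 36, 15 and 4 were pseudogenes.

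**Figure D1:**
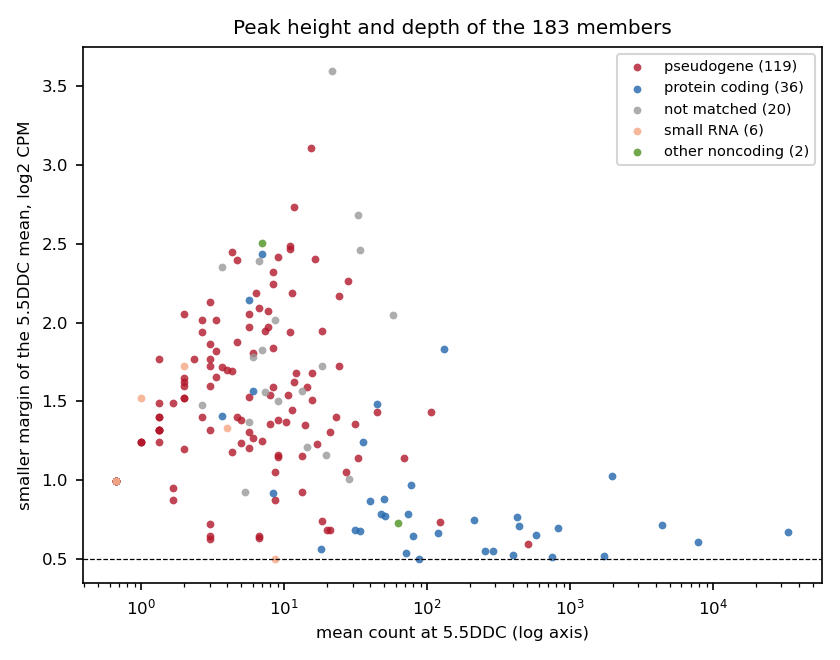
Smaller margin of the 5.5DDC mean over the other time points (log2 CPM) against the mean count at 5.5DDC (log axis), 1 point per member, coloured by class. Pseudogenes lie mostly under 100 counts with margins up to 3.11, and the members with at least 100 counts have margins between 0.51 and 1.83.

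The largest margins were found at mean counts from 10 to 100 at 5.5DDC, up to 3.59, compared with at most 2.505 under 10 counts. Gm4609 had 0, 2 and 2 counts at 4.5DDC, 25, 9 and 12 at 5.5DDC, and 6, 1 and 0 at 6.5DDC, a smaller margin of 3.11. Gm12712 had 3, 2 and 0 counts, then 18, 7 and 10, then 6, 1 and 0. Actg-ps1, a copy of the cytoplasmic gamma-actin gene Actg1, had 2, 1 and 1 counts, then 19, 6 and 8, then 6, 0 and 0. For each of these copies, replicate 1 of 6.5DDC lay nearest to the 5.5DDC libraries and the other 5 libraries held at most 3 counts. Rpsa-ps2 had 9, 2 and 2 counts, then 53, 20 and 11, then 10, 2 and 4. The copy of mt-Co1, Gm13340, was better covered, with 50, 29 and 63 counts, then 191, 95 and 80, then 79, 67 and 61. Gm5620, a copy of the alpha-tubulin gene Tuba1b, had 41, 35 and 29 counts, then 167, 78 and 73, then 75, 23 and 18. Scaled to the library total, the 5.5DDC libraries were above all others in each, as the rule requires.

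The FPKM of the same genes followed another course. Gm4609 had 60.2, 60.9 and 40.7 FPKM at 4.5DDC, 46.0, 47.1 and 53.5 at 5.5DDC, and 42.8, 18.9 and 25.1 at 6.5DDC, so the 5.5DDC libraries overlapped those of 4.5DDC. Gm12712 had 22.1, 29.4 and 22.0 FPKM, then 23.8, 22.4 and 26.0, then 22.4, 16.4 and 20.1. Actg-ps1 had 386 ± 118 FPKM at 4.5DDC, 438 ± 77.7 at 5.5DDC and 302 ± 88.7 at 6.5DDC (SD, n = 3). Gm13340 had 1102 ± 140, 1137 ± 55.4 and 1168 ± 288 FPKM (SD, n = 3). None of these copies had a 5.5DDC level outside the spread of the other time points in FPKM.

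Over all members, 25 of 183 met the same rule in log2(FPKM + 0.1), namely 15 of the 36 protein-coding members, 6 of the 119 pseudogenes, 3 of the 20 symbols not matched and 1 other noncoding RNA. In FPKM, 27 members (14.8%) had no overlap between 5.5DDC and the other libraries, beside 0.931% of all symbols at the FPKM floor. For 85 members, 71 of them pseudogenes, 5.5DDC did not have the highest mean log2 FPKM. The median log2 differences of the pseudogene members of 5.5DDC over 4.5DDC and over 6.5DDC were 1.72 and 1.68 in CPM but −0.01 and 0.49 in FPKM. Those of the protein-coding members were 0.85 and 0.92 in CPM and 0.63 and 0.64 in FPKM.

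**Figure D2:**
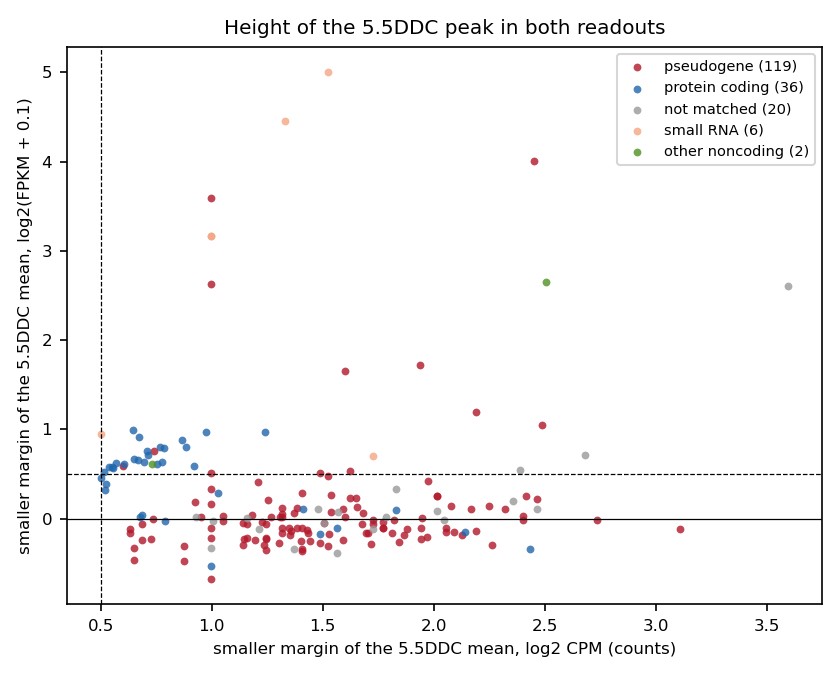
Smaller margin of the 5.5DDC mean in log2(FPKM + 0.1) against that in log2 CPM, 1 point per member, coloured by class, with dashed lines at the margin of 0.5 and a solid line at 0. Most pseudogenes lie near or below 0 in FPKM at every count margin, and of the protein-coding members above both dashed lines 15 also had no overlap in FPKM.

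Summed over the 119 pseudogene members, the counts made up 45.6, 48.0 and 39.7 CPM at 4.5DDC, 108, 103 and 107 CPM at 5.5DDC, and 58.9, 34.2 and 40.7 CPM at 6.5DDC. Their summed FPKM were 9094, 10658 and 8022, then 9685, 8602 and 8502, then 7166, 7227 and 7706. That the 5.5DDC libraries stood apart in CPM follows from the rule, which chose the members on these values, while in FPKM they overlapped those of 4.5DDC. Summed over the 36 protein-coding members, FPKM were 2259, 2469 and 1902 at 4.5DDC, 3050, 2623 and 2689 at 5.5DDC, and 2068, 1865 and 2517 at 6.5DDC. The 5.5DDC libraries were above the others. This is no independent measure, since the rule chose the members by counts of the same libraries and by their FPKM at 5.5DDC. At 5.5DDC the FPKM of a pseudogene member was 39.1 times its CPM per kilobase of exon in the median, compared with 8.99 times for the other pseudogenes and 2.63 times for the protein-coding members.

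**Figure D3:**
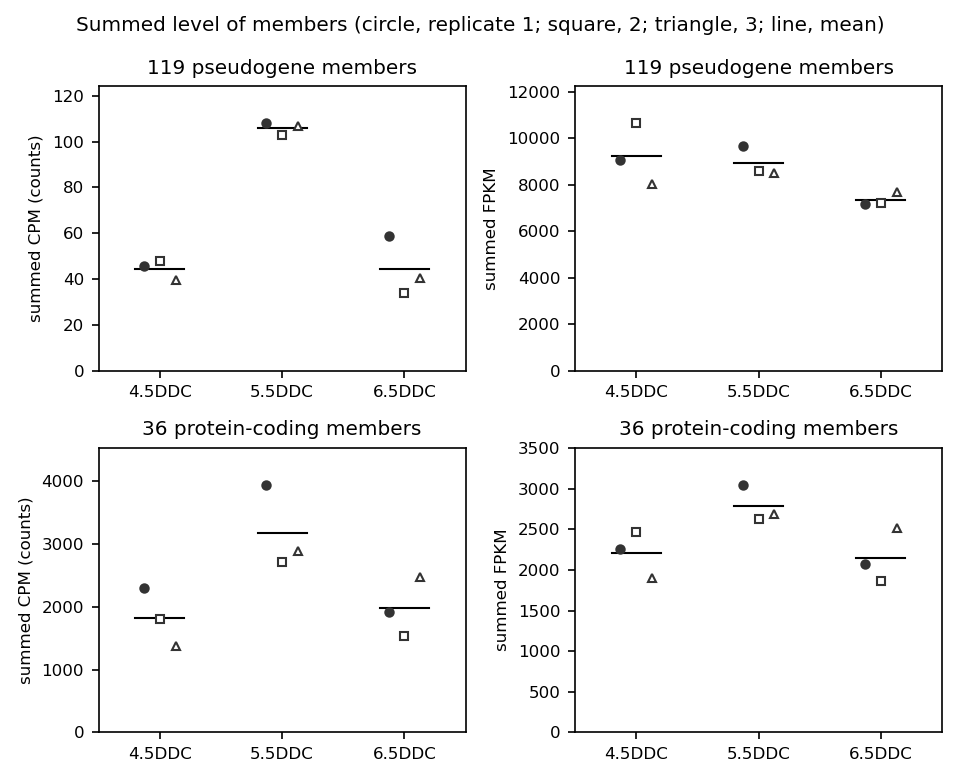
Summed CPM (left) and summed FPKM (right) of the 119 pseudogene members (top) and the 36 protein-coding members (bottom) in each of the 9 libraries, with lines at the means and axes from 0. In pseudogenes the 5.5DDC libraries stand apart at 103 to 108 CPM, while their FPKM of 8502 to 9685 overlap the 8022 to 10658 of 4.5DDC.

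A divergence in the same direction was seen in a small part of the pseudogenes that were not members. The other pseudogenes taken here were the 2008 with a mean of at least 1 FPKM over all 9 libraries. Their difference of 5.5DDC from the mean of the other time points was larger in log2 CPM than in log2 FPKM by 0.045 in the median. It was larger by over 1 in 243 (12.1%) and smaller by over 1 in 30 (1.49%). At 4.5DDC the corresponding numbers were 31 and 254, and at 6.5DDC 88 and 82. In protein-coding genes no such share exceeded 0.406%. The part that read mapping has in the pseudogene peak was not tested.

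The protein-coding members were better counted, 16 of the 36 with a mean of at least 100 counts at 5.5DDC (no functional theme was tested). They are described beyond the naming rule, which holds 28 members, and were chosen after their values were seen. Slit1, a secreted axon guidance ligand of Robo receptors made by the ventral midline, was the most highly counted member. It had 340, 240 and 161 FPKM at 4.5DDC, 642, 369 and 380 at 5.5DDC, and 225, 176 and 336 at 6.5DDC. The 5.5DDC libraries were all higher, and the lowest of them was 369 FPKM against 340 for the highest other library. Igfbp2, a secreted binding protein of insulin-like growth factors, had 122, 157 and 84.1 FPKM, then 273, 260 and 221, then 186, 96.8 and 197. Its 3 libraries at 5.5DDC were above the rest, with a gap to the highest other library smaller than their own spread. Vegfb, a growth factor of the VEGF family, had 7.89 ± 2.73, 11.3 ± 1.23 and 4.97 ± 1.86 FPKM (SD, n = 3) and overlapped between 5.5DDC and 4.5DDC in FPKM. Npff, which encodes a neuropeptide precursor, had at most 32 counts in a library.

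Among membrane and signalling proteins, Gpr56, an adhesion receptor of neural progenitors now named Adgrg1, had 79.9, 65.7 and 56.6 FPKM at 4.5DDC, 113, 97.8 and 116 at 5.5DDC, and 61.7, 60.3 and 97.0 at 6.5DDC. Its lowest 5.5DDC library was barely above replicate 3 of 6.5DDC. Kcnj11, a pore-forming subunit of ATP-sensitive potassium channels, had 1.04, 1.45 and 0.481 FPKM, then 3.86, 3.57 and 3.25, then 1.29, 1.45 and 2.92. Replicate 3 of 6.5DDC was again the library nearest to 5.5DDC. Rras, a small GTPase, had 14.7, 7.80 and 7.64 FPKM, then 19.4, 15.7 and 16.2, then 9.92, 10.4 and 14.5. Dagla, an enzyme of endocannabinoid synthesis, met the rule in CPM only.

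Among enzymes, Naglu, a lysosomal enzyme that degrades heparan sulfate, had 7.42, 7.18 and 3.32 FPKM, then 14.7, 8.87 and 7.42, then 4.60, 3.27 and 7.23, with the 5.5DDC replicate 3 level scarcely above the highest 4.5DDC library. Blvrb, biliverdin reductase B, had 2.54, 3.01 and 1.97 FPKM, then 6.98, 4.32 and 4.41, then 2.57, 2.43 and 3.92. Acsf2, an acyl-CoA synthetase, had 18.9 ± 2.36 FPKM at 4.5DDC, 29.9 ± 7.31 at 5.5DDC and 17.5 ± 2.41 at 6.5DDC (SD, n = 3). Its copy Gm5540, whose sequence is 99.0% identical, had 14.5 ± 2.39, 21.9 ± 3.02 and 12.9 ± 2.24 FPKM (SD, n = 3), and shares 64.1% of its 50-base stretches with another gene, compared with 33.3% for Acsf2, so the split of reads between them is uncertain, more so for the copy. Por, the electron donor of cytochrome P450 enzymes, Lmf1, a lipase maturation factor, and Tfeb, a transcription factor of lysosomal genes, met the rule in CPM only.

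Among nuclear and RNA-acting proteins, Six5, a homeobox transcription factor, had 6.46, 6.08 and 3.53 FPKM at 4.5DDC, 11.8, 7.04 and 6.84 at 5.5DDC, and 4.25, 3.30 and 5.36 at 6.5DDC. Replicate 1 of 5.5DDC was well above its replicates 2 and 3, as for Naglu and Blvrb. Zbtb7b, a zinc finger transcription factor, had 0.738 ± 0.0943, 1.66 ± 0.725 and 0.693 ± 0.136 FPKM (SD, n = 3). Apobec1, a cytidine deaminase that edits RNA, had 0.558 ± 0.103, 1.12 ± 0.267 and 0.541 ± 0.158 FPKM (SD, n = 3). The small heat shock protein gene Hspb6 and the mitochondrial protein gene Chchd10 were near the margin of the rule. In 24 of the 36 protein-coding members replicate 1 was the highest of the 5.5DDC libraries in log2 CPM, compared with 37 of the 119 pseudogenes. The corresponding share among symbols that are not members was not examined, so nothing is read from these numbers.

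**Figure D4:**
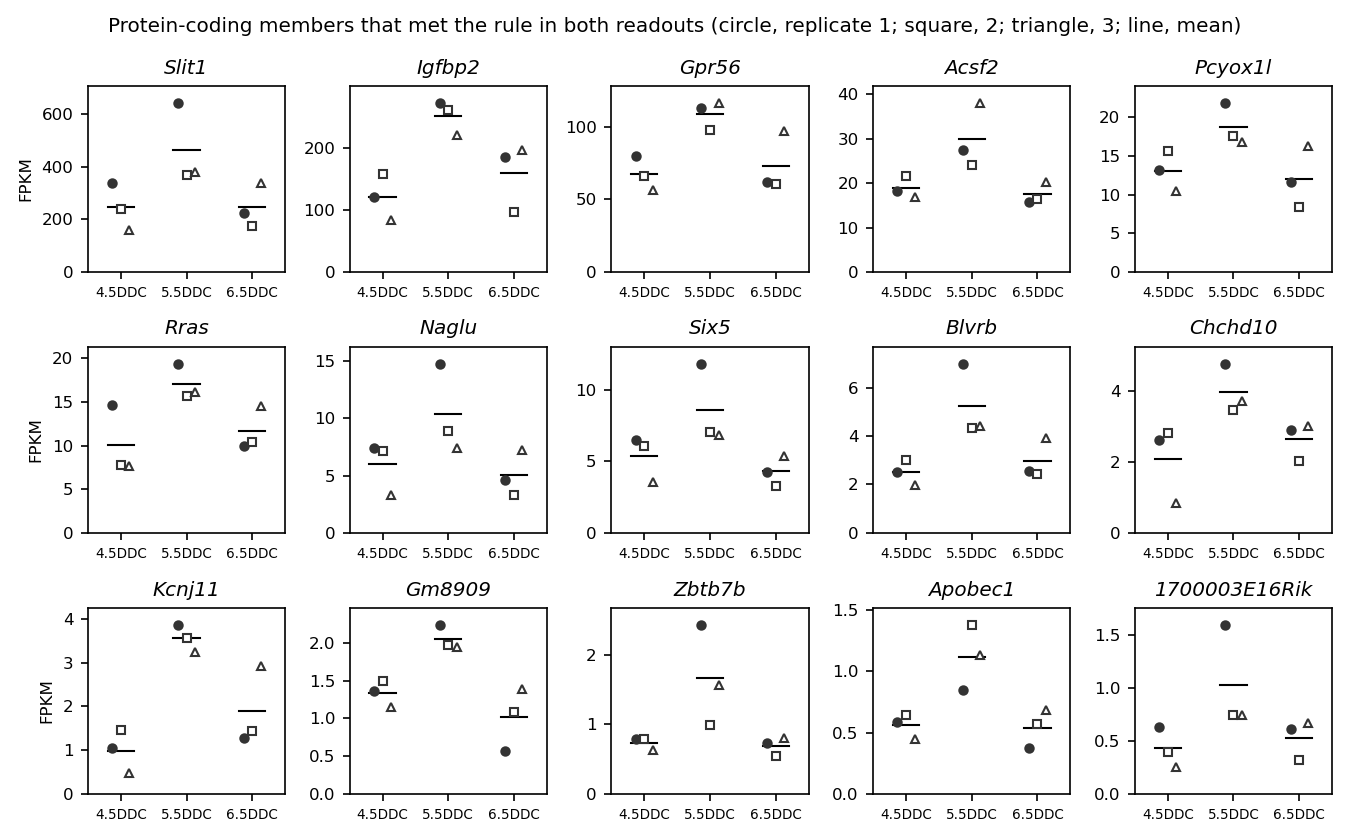
FPKM in each of the 9 libraries for the 15 protein-coding members that met the rule in both readouts, ordered by level at 5.5DDC, with lines at the means and axes from 0. The 5.5DDC libraries lie above all others in each gene, as the rule in both readouts requires. The gap is small in several, among them Gpr56, Six5, Slit1 (369 against 340 FPKM) and Naglu (7.421 against 7.417 FPKM).

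H2-Ab1, a chain of class II histocompatibility molecules, had 29, 7 and 8 counts at 4.5DDC, 60, 24 and 23 at 5.5DDC, and 15, 9 and 18 at 6.5DDC, and in FPKM replicate 1 of 4.5DDC overlapped 5.5DDC. Tap1, a peptide transporter, had 8.57 ± 3.54, 14.1 ± 3.85 and 8.12 ± 0.466 FPKM (SD, n = 3), with overlap.

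The ribosomal protein members Rpl35, Rps16, Rps3a1 and Rpl23a met the rule in CPM only. Rpl35 had 18, 15 and 14 counts, then 342, 27 and 22, then 23, 13 and 12, a mean of 130 counts at 5.5DDC that came mainly from replicate 1. Its FPKM were 126, 167 and 112, then 172, 141 and 119, then 99.9, 89.1 and 113. Rps16 had 18, 17 and 20 counts, then 55, 24 and 22, then 19, 16 and 22, beside 266 ± 61.2, 267 ± 41.6 and 216 ± 40.7 FPKM (SD, n = 3). Rps3a1 had 255 ± 23.2 FPKM at 4.5DDC, 235 ± 8.25 at 5.5DDC and 265 ± 20.4 at 6.5DDC (SD, n = 3), so that 5.5DDC was lowest. Of the 50-base stretches of Rps3a1, 71.0% were found in another gene, the nearest being Rps3a2, and of those of Rps16 34.9%, the nearest being Rps16-ps2. Of the stretches of Rpl35, 84.05% were found in another gene, the nearest being Wdr38. Of those of Rpl23a, 80.8% were, the nearest being Gm10132. At least 50% of the stretches were shared in 16.7% of the protein-coding members and in 3.89% of the other protein-coding symbols. Acat3, 97.7% identical to the acetyl-CoA acetyltransferase gene Acat2 over 1477 bases, had 2, 0 and 0 counts, then 9, 6 and 6, then 1, 0 and 3, but 70.8 FPKM at 4.5DDC, 60.6 at 5.5DDC and 43.4 at 6.5DDC on average.

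The largest margin of all members (3.59) was that of a symbol without a match in the annotation, which had 3, 2 and 0 counts, then 32, 21 and 12, then 2, 0 and 1. Its FPKM were 0.225, 0.257 and 0.0209, then 1.29, 1.85 and 1.08, then 0.172, 0.0122 and 0.0975, so it peaked in both readouts. RP23-268A5.1, with 62, 19 and 18 counts at 5.5DDC and at most 10 in any other library, did so as well. B230206L02Rik, a noncoding processed transcript on chromosome 11, had no count at 4.5DDC, 14, 5 and 2 at 5.5DDC, and 0, 1 and 1 at 6.5DDC. The pseudogene Gm14000 likewise had no count at 4.5DDC, 9, 2 and 2 at 5.5DDC, and 0, 1 and 0 at 6.5DDC. A count of 0 in a library allows up to 3 counts, or 0.118 to 0.271 CPM by library, by counting error alone. The 6 small RNAs had at most 14 counts in a library and are poorly captured by polyadenylated libraries.

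The rule set no order between 6.5DDC and 4.5DDC, but it used their values, since both had to lie below 5.5DDC, so that the test of 6.5DDC against 4.5DDC is no independent measure of the members and nothing is read from the share called. Of the 60 members with enough counts for the edgeR quasi-likelihood test, none had an adjusted p under 0.05, while 2763 of 14742 genes tested (18.7%) did. At an unadjusted p under 0.05 there were 3 members, and DESeq2 and limma voom on the same 60 members also called none. Moreover, 20 of the 60 passed the filter on low counts only through the 5.5DDC libraries, where the rule made them high, and 40 passed it in the 6 libraries compared, with none called and none at an unadjusted p under 0.05. The smallest p-values belonged to Vegfb, with a log2 fold change of −0.73 (SE 0.29, adjusted p = 0.103 in edgeR), the Rps23 copy Gm8618, with 1.96 (SE 0.79, adjusted p = 0.11), and the Hnrnpa3 copy Gm12129, with −1.45 (SE 0.64, adjusted p = 0.135), of which both copies were tested only through the 5.5DDC libraries. Limma on log2(FPKM + 0.1) called 3 members, Gm12129, Gm6576 and Rpsa-ps2, all lower at 6.5DDC and all tested only through the 5.5DDC libraries. In counts Gm6576 and Rpsa-ps2 had the opposite direction, with log2 fold changes of 0.14 and 0.37, and Gm8618 had −0.13 in log2(FPKM + 0.1). Without replicate 3 of 4.5DDC, Vegfb passed the threshold in edgeR (adjusted p = 0.0443), without replicate 3 of 6.5DDC RP23-296J16.1, which is not among the 60, did, and without replicate 1 of 6.5DDC 4 members did, Gm8174, RP23-174B18.1, RP23-268A5.1 and RP23-390C13.1. Of these 4, RP23-174B18.1 and RP23-268A5.1 failed the filter on low counts in the 6 libraries compared. Slit1 had a log2 fold change of 0.13 (SE 0.26, adjusted p = 0.75). The 123 members not tested had too few counts.

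The number of genes called between neighbouring times depended on the tool and on the libraries. Over all 14742 genes, 11 (0.0746%) passed the threshold in edgeR between 4.5DDC and 5.5DDC, 33 (0.224%) between 5.5DDC and 6.5DDC, and 0 (0.0%) for 5.5DDC against the mean of the other time points, where 701 genes had an unadjusted p under 0.05 and DESeq2 also called 0. For the neighbouring times DESeq2 called 495 and 662 genes, and edgeR with the replicate number as a block 212 and 195. With replicates 2 and 3 of 5.5DDC summed, edgeR called 1 and 0. The same rule applied to other time points gave 552 genes that peaked at 4.5DDC, of which 12.0% were pseudogenes, and 403 that peaked at 6.5DDC, of which 2.48% were pseudogenes. Troughs at 5.5DDC were seen in 8 genes, of which 5 (62.5%) were pseudogenes.

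Lists of 12 groups of cell type markers and 22 processes placed the members in none but one. Slit1 is the single member on the list of 30 axon guidance genes. Of that list, 1 was higher and none lower at 5.5DDC than at 4.5DDC in the edgeR test. Over all 14742 genes tested, 9 were higher and 2 lower. At 6.5DDC, 10 of the list were higher and 2 lower than at 4.5DDC, beside 1358 higher and 1405 lower of all genes tested (18.7% called). The median log2 fold change of that list was 0.14 from 4.5DDC to 5.5DDC, compared with 0.0094 over all genes tested, and −0.36 for 5.5DDC over 6.5DDC, compared with −0.019. No list had a summed CPM at 5.5DDC above all other libraries. Floor plate genes, which mark the ventral midline, had 3531 to 5724 CPM at 4.5DDC, 7099 to 10710 at 5.5DDC and 8168 to 9179 at 6.5DDC, with 5 of the 8 tested higher at 6.5DDC than at 4.5DDC and none lower, beside the same 18.7% of all genes. Pan-neuronal genes ranged from 1044 to 3453 CPM at 5.5DDC and overlapped both other time points. The list of cytosolic ribosomal protein genes holds none of the members Rpl35, Rps16, Rps3a1 and Rpl23a. Its 27 genes tested had a median log2 fold change of −0.065 from 4.5DDC to 5.5DDC and of 0.39 for 5.5DDC over 6.5DDC, with none called.

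Near the thresholds, Hspb6 (0.5004), Gm22753 (0.503) and Pcyox1l (0.513) were just inside the margin of 0.5, and Tnfaip8l1 (0.485), Klhl26 (0.477) and Dnajb2 (0.464) just outside. By the gap between the lowest 5.5DDC value and the highest other value, Gpr56 (0.0034), Gal3st3 (0.0043) and Tap1 (0.011) were just inside, and Gm9431 (−0.0012), Gm5921 (−0.0033) and RP24-232F23.2 (−0.0033) just outside. At the FPKM floor, RP24-326F11.1 (1.01), 1700003E16Rik (1.03) and Gm13076 (1.04) were inside, and Scarna10 (0.987), Prr15 (0.866) and Noxred1 (0.785) outside. The overlap criterion decided most cases, since 699 genes failed it alone, compared with 65 for the margin and 91 for the floor.

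To see what the coding members share in sequence, promoters of 300 bases (250 before to 50 after the start) were taken from RefSeq on GRCm38.p6, which held 22 of the 36. Motifs were searched as letters on both strands. The GC box (GGGCGG) was in 16 promoters (72.7%), compared with 67.0% of 9321 other protein-coding symbols, the CCAAT box (CCAAT) in 6 (27.3% against 39.7%), and the E-box CACGTG in those of Igfbp2 and Naglu (9.09% against 10.4%). The letters TGATGNAA, a C/EBP-ATF element, were in those of Apobec1, Chchd10 and 1700003E16Rik (13.6% against 2.02%). That share rests on 3 promoters, and many motifs were searched. Among the others, the ETS letters CCGGAAG were in 9.09% against 19.2%, and the octamer ATTTGCAT in 4.55% against 1.29%. The CRE, YY1 and Gli letters were in no member promoter. These are descriptions of letters in these windows and not of sites. The promoters of Igfbp2 (chr1:72824230-72824529, plus strand) and Naglu (chr11:101069844-101070143, plus strand), members that peaked in both readouts and share an E-box, are printed with all motifs found in capitals.
Igfbp2: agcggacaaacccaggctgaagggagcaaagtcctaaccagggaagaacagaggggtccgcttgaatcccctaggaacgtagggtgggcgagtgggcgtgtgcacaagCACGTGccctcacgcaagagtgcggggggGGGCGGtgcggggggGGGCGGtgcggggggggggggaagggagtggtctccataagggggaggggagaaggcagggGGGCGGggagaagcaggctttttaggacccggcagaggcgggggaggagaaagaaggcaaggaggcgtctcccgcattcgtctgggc
Naglu: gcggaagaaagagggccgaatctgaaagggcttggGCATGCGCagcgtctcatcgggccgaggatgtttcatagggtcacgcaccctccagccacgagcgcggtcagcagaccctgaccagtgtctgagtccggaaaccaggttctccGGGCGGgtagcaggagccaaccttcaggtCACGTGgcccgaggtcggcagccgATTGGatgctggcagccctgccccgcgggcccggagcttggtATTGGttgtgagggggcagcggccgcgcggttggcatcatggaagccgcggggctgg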

How the data were processed

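Polyadenylated RNA of 9 libraries, 3 per time point, was sequenced. Per the labels and the study's methods, the authors used bcl2fastq 1.8.3, TopHat2 2.0.4 on GRCm38, HTSeq 0.6.1 for counts and Cufflinks 2.1.1 for FPKM. The deposited counts are whole except for 98 symbols, so they were treated as estimated counts and rounded, where whole counts had been assumed. The deposited log2 values equal the log2 CPM of these counts with an offset of 0.5. The deposited FPKM come from Cufflinks and were analysed as log2(FPKM + 0.1).

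The members and lists were chosen with earlier results of these data known. Named genes were the 20 members with the largest smaller margin, the 10 with the highest FPKM at 5.5DDC, those called between 6.5DDC and 4.5DDC, and those in a list, 28 in all. Tests used edgeR 4.0.16 (TMM, filterByExpr, quasi-likelihood, Benjamini-Hochberg adjustment over 14742 genes, threshold 0.05) on all 9 libraries, after a test on simulated data. DESeq2 1.42.0 and limma 3.58.1 were alternatives, besides other scalings, filters, margins, a replicate block and leaving out each library. GENCODE M21 matched 163 of the 183 members, 4 under a newer symbol. Totals of 11066572 to 25506192 counts put 3 counts at 0.118 to 0.271 CPM, which covers counting error only. Deviations of same-numbered libraries from their group means correlated at 0.749, 0.412 and 0.461 between 4.5DDC and 5.5DDC, at 0.461, 0.373 and 0.212 between 5.5DDC and 6.5DDC, and at 0.392, −0.0183 and −0.191 between 4.5DDC and 6.5DDC. By this check, and not by the labels, the numbers pair the libraries in the comparisons with 5.5DDC but not 4.5DDC with 6.5DDC. The blocked counts are given as an alternative only. A few items that are withheld are not reported here.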

Additional observations from a re-analysis of the deposited data

How the results depend on the processing

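The number of members, 183, was 67 and 39 in log2 FPKM with a pseudocount of 0.1 and 1 (25 and 18 shared), 297 with 5.5DDC replicates 2 and 3 summed, and 177 to 399 with 1 library left out. In alternatives chosen after seeing the data, it was 1600, 794 and 837 within replicate number 1, 2 or 3 alone, and 76, 50 and 29 with a mean count of at least 10, 20 and 50. TMM scaling gave 173 and DESeq2 size factors 170. Members called between 6.5DDC and 4.5DDC numbered 0 in edgeR, 3 by limma on log2(FPKM + 1), 3 on log2(FPKM + 0.1), and 0 to 4 with 1 library left out. Over all genes, that comparison called 1125 to 3132 with 1 library left out, against 2763.

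The other all-gene counts moved more. From 4.5DDC to 5.5DDC, 11 genes became 495 in DESeq2, 25 without a filter, 1 with the alike libraries summed and 1 to 28 with 1 library left out. From 5.5DDC to 6.5DDC, 33 became 55 without TMM, 662 in DESeq2, 78 without a filter, 0 with the alike libraries summed and 0 to 196 with 1 library left out. For 5.5DDC against the mean of the others, 0 became 0 to 2 with 1 library left out. The causes were not tested.

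With a replicate block, the counts were 212 for 5.5DDC against 4.5DDC, 195 for 5.5DDC against 6.5DDC, 3418 between 6.5DDC and 4.5DDC, and 0 members. The block turned the log2 fold changes of Gm5620 to −0.0152 and of RP23-174B18.1 to −0.0298. It changed no other direction among the 15 named.

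Of 289 alternative values of those 15 log2 fold changes between 6.5DDC and 4.5DDC, 250 kept direction and call, 4 kept direction and passed the threshold, and 35 turned, of which 3 also passed it (Rpsa-ps2 in both FPKM settings, RP23-174B18.1 without 6.5DDC replicate 1). Of the 15, 8 passed the count filter only through 5.5DDC, and the rule used the values compared, so nothing is read from these numbers about stability. Under limma voom, Gm11185 was −0.35, Gm5620 −0.26 and RP23-174B18.1 −0.76. In log2(FPKM + 1) and log2(FPKM + 0.1), Gm11185 was −1.04 and −1.17, Gm4609 −0.93 and −0.96, Gm5620 −0.66 and −0.66, RP23-174B18.1 −0.69 and −0.74, Rpsa-ps2 −0.69 and −0.69, and Gm8618 −0.13 and −0.13. Rps16 was 0.0032 without a filter, 0.011 with CPM above 1 in 3 libraries and 0.010 in the 6 libraries compared. With 1 library left out, the values that turned ranged from −0.707 to 0.889 for Gm11185, −1.43 to 1.36 for Gm4609, −0.984 to 0.595 for Gm5620, −1.92 to 0.622 for RP23-174B18.1, −5.18 to 0.43 for RP23-268A5.1, −0.2 to 0.139 for Rps16, −0.644 to 1.19 for Rpsa-ps2 and −0.0275 to 0.396 for Slit1. The causes were not tested. Of the 183 members, 107 had a mean under 10 counts at 5.5DDC.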
